A study of Mus musculus with 6 samples.

Results

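Transcripts of 33 endothelial genes were followed in aortic roots of klotho-deficient and wild-type mice. The genes were chosen by name, as markers and regulators of endothelial cells, and not by a threshold on measured values. All 33 of 33 were on the array among 18193 genes, through 57 probe sets annotated to exactly 1 gene. Each gene was read from its brightest probe set over the 6 arrays. Klotho-deficient mice were homozygous for a mutant klotho allele, whose kind the labels do not give, and wild-type mice carried 2 wild-type copies. All mice were albino C57BL/6J and 6 to 6.5 weeks old, and the labels name no drug or diet and no sex. Each array held RNA pooled from 3 aortic roots with valve leaflets, annulus and some ascending aorta, with 3 arrays per genotype, and was amplified before labelling. P-values thus reflect the spread between pools.

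Endothelial cells line the lumen of the aorta and cover both faces of the valve leaflets, and they form the vasa vasorum of the wall. They seal the surface through junction proteins, respond to VEGF and angiopoietins through receptor tyrosine kinases, and make nitric oxide. Their identity is kept by ETS, SOX and basic helix-loop-helix transcription factors. In a whole root they are a minority beside smooth muscle and interstitial cells.

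In klotho-deficient roots 29 of the 33 genes had a lower mean log2 signal than in wild type and 4 a higher one, against 49.6% lower among all 18193 genes. The median difference, klotho-deficient minus wild type, was -0.26 on the log2 scale, against 0.003 over all genes. Limma called 0 of the 33 and 0 of all genes (0%) at an adjusted p under 0.05, and member adjusted p ran from 0.67 to 0.981. At an unadjusted p under 0.05 there were 5 members, Arhgef15, Tek, She, Icam2 and Mmrn2, all lower. At that level 3.16% of all genes were lower and 3.25% higher, 1166 genes in all. In 8 members all klotho-deficient arrays lay below all wild-type arrays, where 6.84% of all genes did so, and in 0 members all lay above, where 6.63% did so. With each array centred on its own median, 2 members were separated in place of 8, and 4.63% of all genes. Fewer endothelial cells and less RNA per cell cannot be told apart in such tissue.

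The pools of a genotype differed among themselves in these genes. On wild-type replicate 3, 27 of 33 members had their highest signal, a share of 81.8%, against 25.5% of the 13322 genes with a mean above background. Background here is 161.8, the highest signal that any of 27 probe sets for Bacillus spike-in genes gave on any array. The members' median log2 signal, centred on each gene's mean, was 0.55 on that array. It was -0.12 and 0.04 on wild-type replicates 1 and 2, and -0.22, -0.23 and 0.06 on klotho-deficient replicates 1, 2 and 3. Without wild-type replicate 3 the median difference was -0.10, with 22 members lower and 11 higher. Without wild-type replicate 1 it was -0.45 and 33 of 33 were lower, and without klotho-deficient replicate 3 it was -0.35 with 29 lower.

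**Figure D1:**
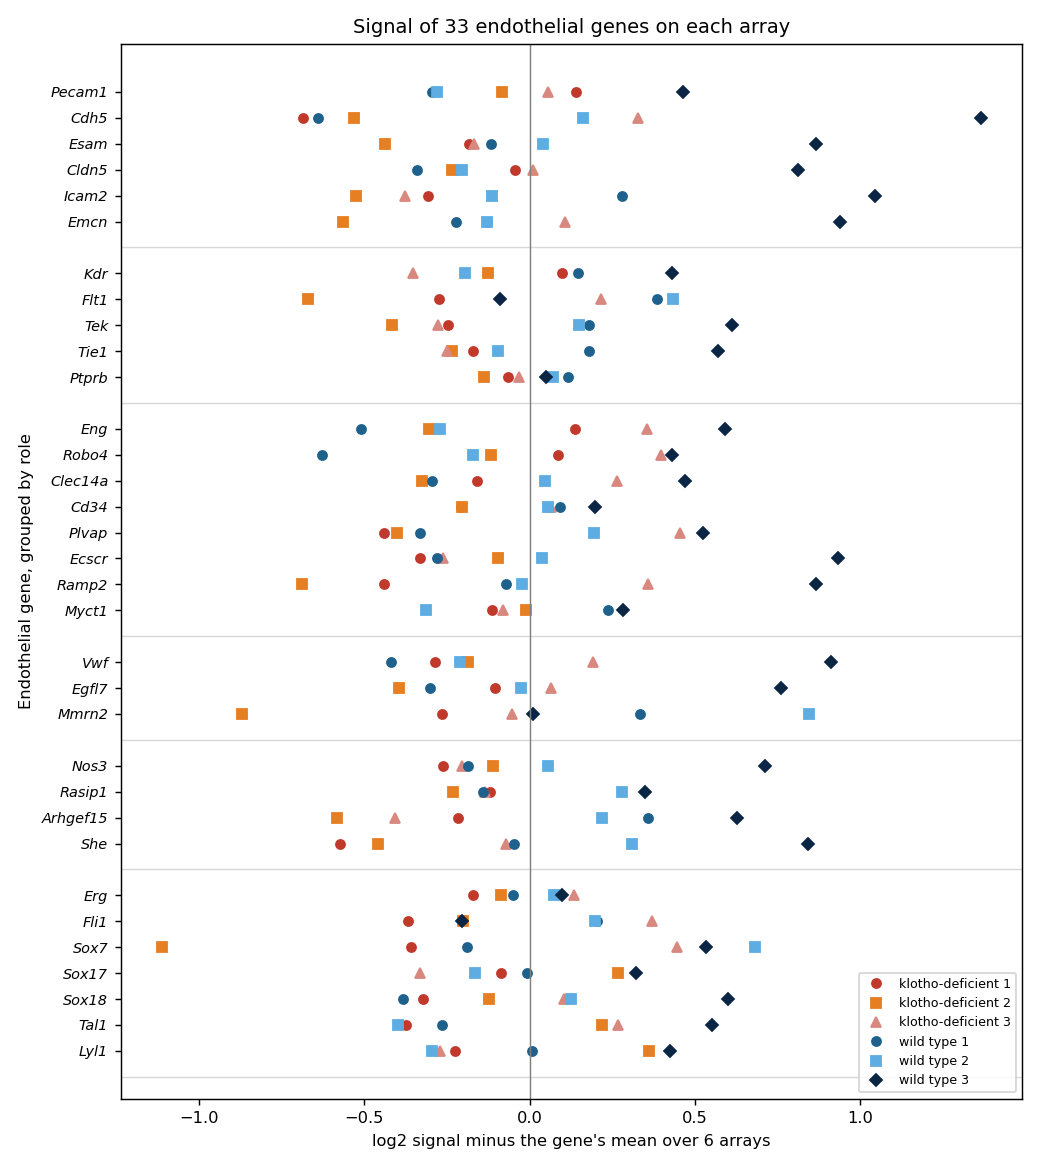
The plot shows, for each of 33 endothelial genes in rows grouped by role, the log2 signal on each of 6 arrays minus the gene's mean (x axis); each symbol is 1 array. The dark diamonds of wild-type replicate 3 lie farthest right in 27 of 33 genes.

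**Figure D2:**
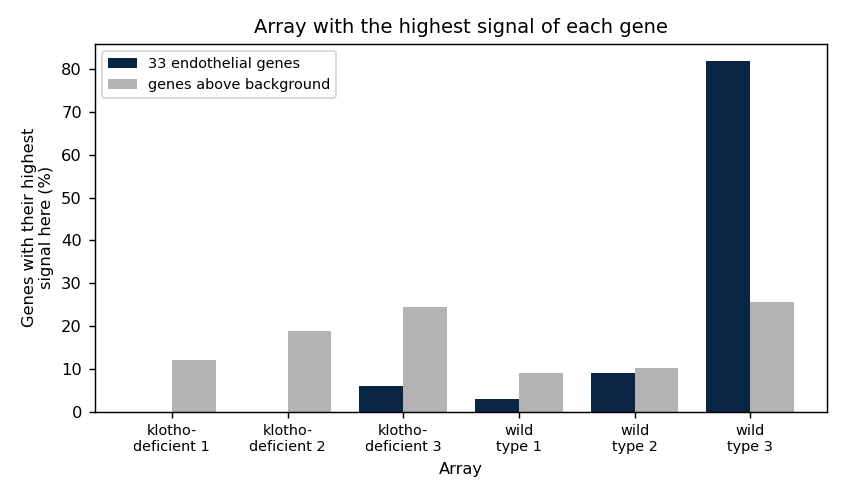
Bars give the percentage of genes whose highest signal fell on each array (x axis), for the 33 endothelial genes and for the 13322 genes above background. Wild-type replicate 3 held 81.8% of the former and 25.5% of the latter, and klotho-deficient replicates 1 and 2 held 0 of the 33.

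Other features of the arrays moved with that pool. Control probes at both ends of the Gapdh transcript, a measure of RNA quality, gave a 3' over 5' quotient of 7.18 for this pool and of 3.23 to 4.08 for the remaining 5, whereas for Actb it was 1.1 and 1.07 to 1.18. Of 8 mesothelial and epithelial markers 6 were highest on it, and their summed signal was 57629 there, against 33846 and 37762 in the remaining wild-type pools and 22943 to 37329 in klotho-deficient roots; 0 of the 8 were below background on every array. Of 10 leukocyte markers 8 were highest on it, with sums of 54237 to 79680 in wild type and 55046 to 73604 in klotho-deficient roots. Cd3e and Itgam, among those 8, were below background throughout. Ptprc was instead lowest on wild-type replicate 3, at 2823.2 against 3322 to 5586 on the remaining arrays. The part of these features in the endothelial result was not tested. Y-linked transcripts were not balanced between genotypes, and the share of each sex within a pool is not known. The part of sex in the differences was not tested. Xist, an X-linked transcript, was far above background on all 6 arrays, at 19873.8 to 36290.2. The 3 Y-linked genes measured were below background on klotho-deficient replicates 2 and 3, so those pools gave no sign of male tissue. Beside Xist, the other 4 arrays had Y-linked transcripts above background. Between klotho-deficient replicate 1, which had these transcripts, and the wild-type arrays, the members' median difference was -0.38 and 30 of 33 were lower; that array was singled out after its values were seen. Kl itself, the mutated gene, gave 138.3 to 217.4 against 166.7 to 202.1, near background, and did not separate the genotypes. All 33 members were above background on all 6 arrays, with signals from 215.2 to 14243.5, so transcripts of the endothelial markers were measured in every pool.

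Promoters are shown for the 4 members of smallest p that had a RefSeq entry, because ETS factors such as the members Erg and Fli1 bind a GGAA core and are known regulators of endothelial genes. The windows are the 250 bases before the start in build GRCm38.p6, at chr4:94739039-94739288 on the + strand for Tek, chr3:89831120-89831369 on the + strand for She, chr4:118489850-118490099 on the - strand for Tie1 and chr5:147726012-147726261 on the - strand for Flt1. They read 5′ to 3′ along the gene, with GGAA and its reverse complement TTCC in capitals.
Tek: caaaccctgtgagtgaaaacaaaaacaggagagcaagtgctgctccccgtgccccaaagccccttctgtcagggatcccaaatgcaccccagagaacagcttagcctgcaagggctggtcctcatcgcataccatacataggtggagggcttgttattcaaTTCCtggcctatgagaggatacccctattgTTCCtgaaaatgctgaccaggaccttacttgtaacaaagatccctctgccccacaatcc
She: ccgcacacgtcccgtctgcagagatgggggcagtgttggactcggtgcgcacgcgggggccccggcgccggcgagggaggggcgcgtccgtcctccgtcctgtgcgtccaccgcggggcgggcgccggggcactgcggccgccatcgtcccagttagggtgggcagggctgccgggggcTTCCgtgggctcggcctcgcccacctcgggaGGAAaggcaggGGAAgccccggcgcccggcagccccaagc
Tie1: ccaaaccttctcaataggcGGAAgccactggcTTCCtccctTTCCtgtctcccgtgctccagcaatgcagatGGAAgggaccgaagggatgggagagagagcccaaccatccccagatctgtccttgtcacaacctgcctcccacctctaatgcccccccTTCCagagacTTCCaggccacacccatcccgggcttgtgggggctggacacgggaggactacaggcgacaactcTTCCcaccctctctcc
Flt1: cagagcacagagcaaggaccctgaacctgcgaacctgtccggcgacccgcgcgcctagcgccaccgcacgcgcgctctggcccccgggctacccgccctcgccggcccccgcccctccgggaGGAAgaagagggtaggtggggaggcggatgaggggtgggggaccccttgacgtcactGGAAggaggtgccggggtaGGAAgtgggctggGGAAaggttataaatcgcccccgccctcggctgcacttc
The core occurred 2 times in the Tek window, 3 times in She, 7 times in Tie1 and 4 times in Flt1. It was in 20 of 22 windows (90.9%) of the 17 members with such an entry, and in 93.4% of all 32851 windows of this length, so it does not set them apart. The longer word CAGGAAG, which contains GGAA, was in 7 of the 22 windows (31.8%), in 6 of the 17 genes and in 0 of the 4 windows printed, against 10.8% of all. The SOX-type word AACAAT was in 3 of 22 (13.6%, 1 of them Tek) against 9.42%, and the GATA-type word AGATAA in 3 of 22 (13.6%) against 9.99%. Both strands were searched, and a match is a description of letters, not of a bound site.

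Receptor tyrosine kinases and the phosphatase that opposes them were all lower, 5 of 5, with a median of -0.44. Tek, the angiopoietin receptor also called Tie2, gave signals of 6194.9, 5509.7 and 6068.6 in klotho-deficient and 8317.6, 8152.2 and 11234.7 in wild-type roots. The genotypes did not overlap, and the klotho-deficient pools lay within a narrow band. The difference was -0.63 ± 0.20 (SE; fold 0.648; limma adjusted p = 0.723), and -0.48 without wild-type replicate 3. Tie1, the orphan partner of Tek, measured 611, 584.5 and 579.1 against 779.7, 643.4 and 1021.3, also without overlap (-0.44 ± 0.22; limma adjusted p = 0.796), and at -0.26 without wild-type replicate 3. Ptprb, the endothelial phosphatase VE-PTP that acts on Tek, was 9017.4, 8559.4 and 9209.3 against 10217.9, 9903.7 and 9747.5. Its groups were apart, but the difference of -0.16 ± 0.16 was about the size of its error. Of its other probe sets, a dimmer one was also separated, at 1030.8, 1097.9 and 1098.4 against 1560.1, 1451.7 and 1427.4 (-0.46), and the other overlapped (-0.30).

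Both VEGF receptors overlapped between genotypes. Kdr, the main signalling receptor for VEGF-A, was 2932.6, 2508.5 and 2143.7 against 3027.9, 2389.7 and 3689.2, a difference of -0.25 ± 0.24, or -0.10 without wild-type replicate 3. Flt1, a high-affinity receptor that also limits VEGF signalling, was 1577.4, 1197.7 and 2214.1 against 2490.3, 2578.7 and 1794.2 (-0.49 ± 0.29). On this probe set wild-type replicate 3 was the lowest of its group, and without it the difference was -0.65. The other Flt1 probe sets were also lower, at -0.60, -0.32 and -0.43. The last 2 of these did not overlap, with 1158.2 to 1210.1 against 1288.8 to 1577, and 1030.3 to 1458.4 against 1644 to 1775.7. Wild-type replicate 3 was the highest array on the first and the last of them, at 874.9 and 1775.7, so the Flt1 probe sets disagree on its place. Which Flt1 transcript each probe set reads was not examined.

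Junction and adhesion proteins were lower in 5 of 6, with a median of -0.46, and were the role group highest on wild-type replicate 3, at a mean centred log2 signal of 0.91. Icam2, an adhesion molecule of endothelial junctions, was 1130.2, 971.1 and 1076.6 against 1695.5, 1292.3 and 2882.2. The genotypes were apart, at -0.81 ± 0.32 (fold 0.572; limma adjusted p = 0.77), and at -0.49 without wild-type replicate 3. Esam, a tight junction adhesion protein, was 3587.1, 3005.4 and 3624.5 against 3750.9, 4184.7 and 7414.2; the groups were apart by a small gap and the difference was -0.52 ± 0.30, or -0.22 without that pool. Cdh5, the VE-cadherin of adherens junctions, had the widest spread of the members, at 1011.3, 1125 and 2040.9 against 1044.4, 1819.3 and 4194.8. Its difference of -0.59 ± 0.56 was -0.06 without wild-type replicate 3, and its other probe set gave -0.02.

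The other genes placed in the junction and adhesion group overlapped between genotypes. Emcn, the sialomucin endomucin, was 6293.4, 4650.6 and 7411.4 against 5902.1, 6296.2 and 13195.8 (-0.39 ± 0.37, or -0.02 without wild-type replicate 3). Cldn5, the tight junction claudin of endothelium, was 2215.3, 1943.1 and 2301.2 against 1806.1, 1983.5 and 4007.9. Its difference of -0.18 ± 0.34 turned to 0.18 without that pool. Pecam1, the adhesion molecule CD31, was 5615.9, 4802.2 and 5289.8 against 4144.9, 4196.1 and 7018.4. All 3 klotho-deficient pools lay between the lower pair of wild-type pools and the high one, and the difference was 0.07 ± 0.26, or 0.33 without wild-type replicate 3.

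**Figure D3:**
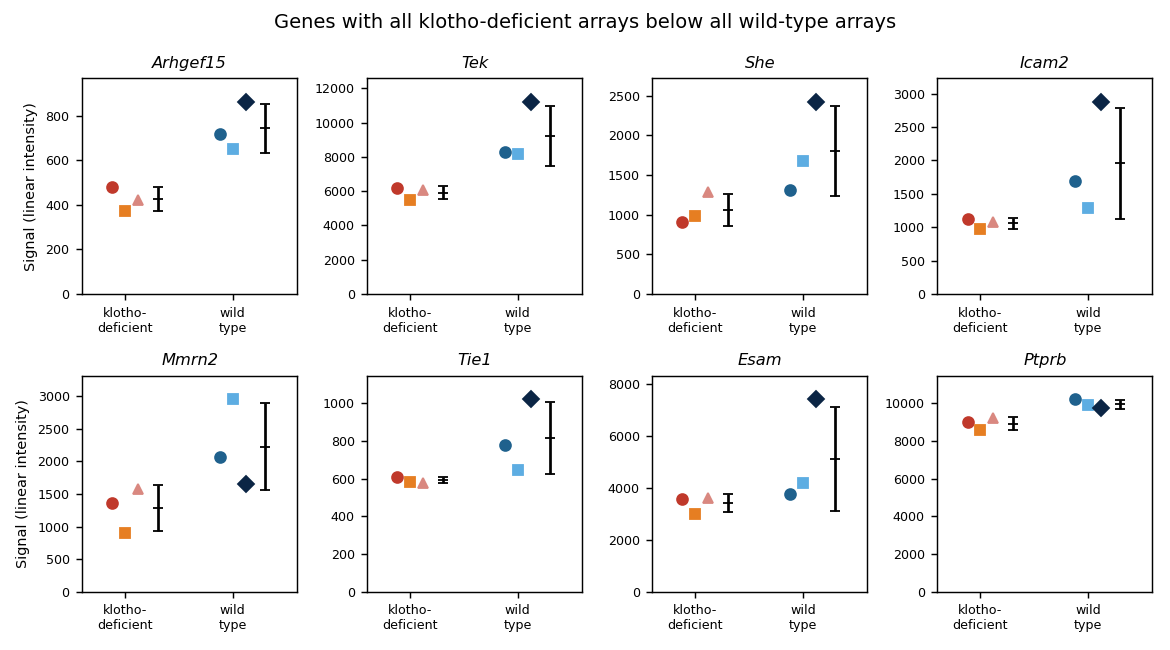
Panels show the linear signal (y axis, from 0) of 8 endothelial genes on each klotho-deficient and wild-type array; symbols are arrays and bars the mean ± SD (n = 3). In 6 of the 8 the dark diamond, wild-type replicate 3, is the highest point, and in Mmrn2 and Ptprb it is the lowest wild-type point.

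Signalling enzymes and adaptors were lower in 4 of 4, with a median of -0.56. Arhgef15 was the member of smallest p. Its signals were 480.5, 373.1 and 421.1 against 716.6, 650.2 and 863.4. Every klotho-deficient pool was well below every wild-type pool, with a difference of -0.80 ± 0.20 (fold 0.573; limma adjusted p = 0.67) and of -0.69 to -0.90 with any 1 array left out. Its other probe sets went the same way with overlap, at -0.38 and -0.36. She, an SH2-domain adaptor, was 909.5, 985.6 and 1289.6 against 1310, 1679.7 and 2427. The gap between the groups was narrow; the difference was -0.74 ± 0.29 (limma adjusted p = 0.77), and the other probe set gave -0.78 with overlap.

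Nos3, the endothelial nitric oxide synthase, was 459.8, 510.8 and 478.7 against 484.5, 573.3 and 903.9. The klotho-deficient pools were close together and overlapped only wild-type replicate 1 (-0.39 ± 0.27, or -0.13 without wild-type replicate 3). Rasip1, a Ras-interacting protein needed for vessel lumens, was 636.5, 589 and 629.3 against 627.1, 838.8 and 880.3, again overlapping only at wild-type replicate 1 (-0.32 ± 0.20).

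Among secreted and matrix proteins 3 of 3 were lower. Mmrn2, multimerin 2, an endothelial matrix glycoprotein that binds Clec14a and Cd93, was 1366.3, 898.1 and 1582 against 2071.4, 2953.2 and 1655.9. The groups were apart, and wild-type replicate 3 was the lowest wild-type pool on this probe set. The difference was -0.79 ± 0.32 (fold 0.577; limma adjusted p = 0.77), and -0.99 without that pool. The other 3 Mmrn2 probe sets gave -0.60, -0.44 and -0.92, and the last was separated more widely, at 783.7 to 1392.6 against 1873.3 to 2243.8. On the one at -0.44 wild-type replicate 3 was instead the highest array, at 2452.2 against 1216.9 and 1183.4 in the other wild-type pools. Vwf, the platelet-binding von Willebrand factor, was 6213.2, 6652.5 and 8644.4 against 5664.2, 6550.5 and 14243.5. Only wild-type replicate 3 was above the klotho-deficient pools; the difference was -0.19 ± 0.39, or 0.22 without it. Egfl7, a secreted regulator of vessel assembly, was 5081, 4154.9 and 5714.1 against 4438.8, 5372.6 and 9265.9 (-0.29 ± 0.32, or 0.02 without it), and its other probe sets gave 0.09, -0.12 and -0.37. Platelets also carry Vwf: of 6 platelet and megakaryocyte markers measured, Itga2b and Gp9 were below background on every array. The summed signal was 21417 to 24942 in klotho-deficient and 21540 to 27914 in wild-type roots, highest on wild-type replicate 3. Only 1 of the 6, Pf4, was itself highest on that pool, at 17291.5. By count 4 of the 6, with Itga2b and Gp9 among them, were highest on klotho-deficient replicate 2. The part of platelets in the Vwf values was not tested.

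Of 8 other receptors and surface proteins 6 were lower, with a median of -0.19 and overlap in all 8. Ramp2, which pairs with Calcrl to form the adrenomedullin receptor, was 3711.1, 3127.7 and 6452.5 against 4795.6, 4953.4 and 9177.7 (-0.51 ± 0.39, or -0.21 without wild-type replicate 3). Ecscr, an endothelial surface regulator of migration, was 2382.7, 2804.5 and 2497.5 against 2465.4, 3073.6 and 5723.9 (-0.46 ± 0.34, or -0.11 without wild-type replicate 3). Cd34, a sialomucin of endothelium and of blood and stromal progenitors, was 8682.1, 8699.3 and 10482 against 10675.8, 10401.1 and 11479. Only klotho-deficient replicate 3 reached the wild-type range (-0.23 ± 0.17). Plvap, which forms the diaphragms of fenestrae and caveolae, was 1143.9, 1174.2 and 2128 against 1231.5, 1773.6 and 2229.2 (-0.26 ± 0.35, or -0.06 without wild-type replicate 3).

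Clec14a, a lectin receptor, and Myct1, a small membrane protein, overlapped at -0.15 ± 0.28 and -0.14 ± 0.22, or at 0.05 and -0.03 without wild-type replicate 3. Another Myct1 probe set was separated at 529.2, 729.8 and 666.9 against 854, 979.5 and 907.6 (-0.52), while a further one went the other way (0.24). The Myct1 probe sets therefore disagree. Eng, endoglin, a co-receptor for BMP9 and TGF-beta, was 4422.8, 3254.3 and 5140.4 against 2819.4, 3332.9 and 6048.6 (0.13 ± 0.35), and its other probe set gave -0.49. Robo4, a guidance receptor that stabilises vessels, was 352.8, 306.7 and 437.9 against 215.2, 295.1 and 448.3, the highest of the 33 differences at 0.24 ± 0.32. Both genes overlapped between genotypes, and without wild-type replicate 3 their differences were 0.45 and 0.52.

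Transcription factors differed least, with a median of -0.10 over 7 genes, 6 lower and 0 without overlap. Erg, the ETS factor most restricted to endothelium, was 8849.3, 9365.9 and 10925.8 against 9619.2, 10475.1 and 10662.5. The genotypes overlapped almost fully, with a difference of -0.08 ± 0.17 and a 95% interval of -0.51 to 0.34, and its other probe set gave 0.11. Fli1, the related ETS factor also made by blood cells, was 1437.6, 1613 and 2398.2 against 2135.4, 2128.4 and 1607.5 (-0.13 ± 0.26), and its other probe set gave -0.20. For both, klotho-deficient replicate 3 was the highest array on the brightest probe set, and not wild-type replicate 3. On the other Fli1 probe set wild-type replicate 2 was highest, at 1121.4 against 947 on klotho-deficient replicate 3.

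The SOXF factors Sox7, Sox17 and Sox18 act redundantly in vessel and valve endothelium. Sox7 was 481.9, 285.9 and 841.9 against 541.7, 990.5 and 895.5, a wide spread in both genotypes (-0.68 ± 0.45). Its other probe set, at the dimmer signals of 275.3, 237.6 and 280.9 against 196, 181.5 and 145.1, went the other way (0.61), so the Sox7 probe sets disagree. Sox17 was 553.3 to 837.5 against 620.9 to 871.3 (-0.10 ± 0.24; other probe set 0.48). Sox18 was 724.5 to 975.2 against 695.5 to 1374.1 (-0.23 ± 0.29). The basic helix-loop-helix factors Tal1 and Lyl1, shared by endothelium and blood progenitors, were 651.5 to 1015.9 against 640.5 to 1238.5 (0.07 ± 0.33) and 493.5 to 766 against 485.1 to 799.2 (-0.09 ± 0.28).

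**Figure D4:**
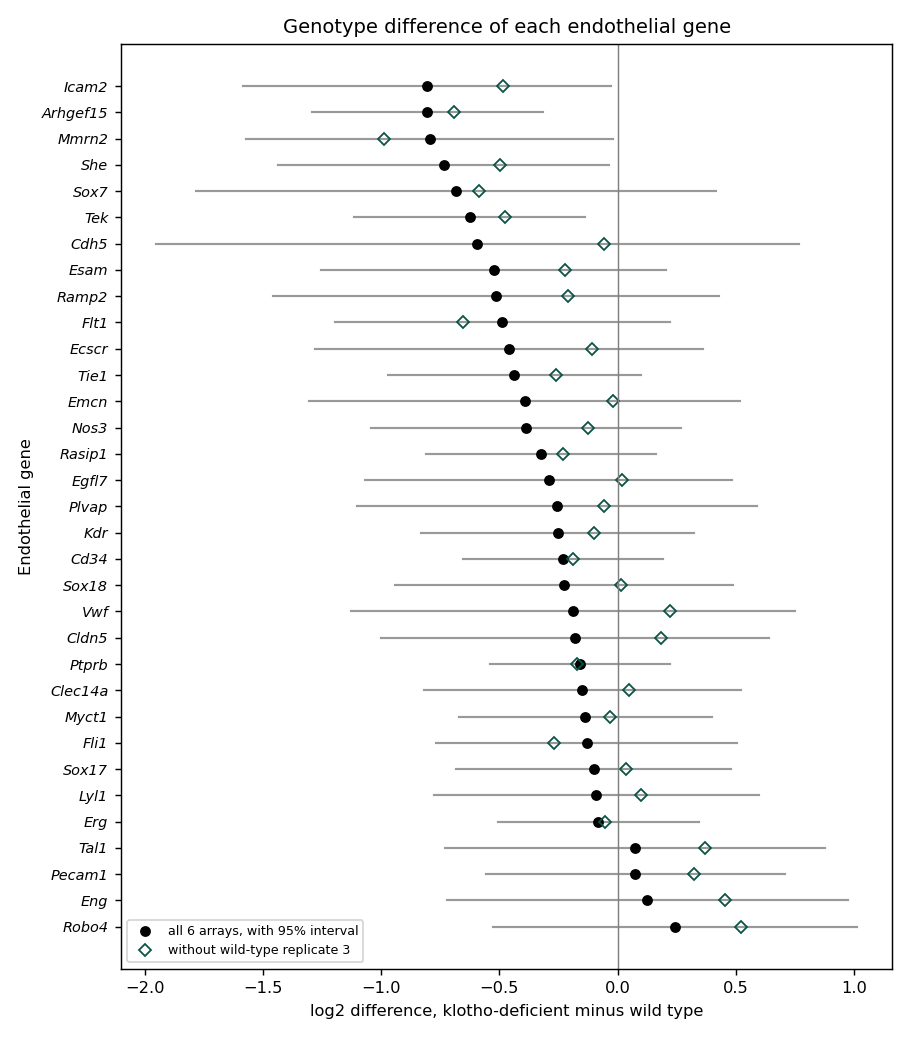
Each of 33 endothelial genes (rows) is shown by its log2 difference, klotho-deficient minus wild type (x axis), over all 6 arrays with limma's 95% interval (filled circle and line), and without wild-type replicate 3 (open diamond). Intervals of 5 genes lie wholly below 0; without that array 22 diamonds are below 0 and 11 above.

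The high signal of wild-type replicate 3 was uneven across members. In 17 of 33 members (51.5%) its signal was over 1.5 times the mean of the other wild-type pools, against 8.56% of the genes above background. The ratio was 2.93 for Cdh5, 2.33 for Vwf, 2.16 for Emcn and 2.12 for Cldn5. It was 1.06 for Erg, 1.09 for Cd34, 0.969 for Ptprb, 0.754 for Fli1, 0.708 for Flt1 and 0.659 for Mmrn2, each on its brightest probe set. In absolute size, the difference shrank to under 0.5 of its value in 13 members when this pool was left out. Of these, Egfl7, Sox17, Sox18 and Clec14a turned above 0. Outside the 13, Vwf, Cldn5 and Lyl1 turned from lower to higher, at 0.22, 0.18 and 0.10. The difference kept its sign under every alternative tried in 20 members, among them Arhgef15, Tek, Mmrn2, Flt1, Icam2, She, Tie1, Esam and Ptprb. The 20 also include Cdh5, Emcn, Plvap and Myct1, at only -0.06, -0.02, -0.06 and -0.03 without that pool. A replicate block, leaving out dim genes, another variance prior and a threshold of 0.1 cannot change a difference, so they do not bear on its sign. Over all 57 probe sets of the list, 48 were lower, 14 had all klotho-deficient arrays below all wild-type arrays and 1, the dim Sox7 probe set, had all above; 39 were highest on wild-type replicate 3. Of all 34945 probe sets with 1 gene, 48.5% were lower, 6.21% had all klotho-deficient arrays below, 6.42% had all above and 19.1% were highest on that pool.

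Further endothelial genes outside the 33 were taken from 8 pathway lists. Of 99 measured genes 64 were lower and 35 higher, with a median of -0.14, and limma called 0 in either direction. In 10 of the 99 all klotho-deficient arrays lay below wild type and in 2 above, beside the 6.84% and 6.63% of all genes. The genes named from these lists were picked for such separation, so it is a description. Ligands and co-receptors of VEGF, angiopoietin and apelin were lower in 10 of 12 (median -0.14), with Aplnr, the apelin receptor, at 157.4, 195.9 and 67 against 463.4, 773.3 and 221 (-1.75 ± 0.59; limma adjusted p = 0.731). Klotho-deficient replicates 1 and 3 were below background, so its size is uncertain, and with an offset of 100 the difference was -1.21. Arterial Notch, ephrin and connexin genes were lower in 8 of 10 (median -0.26), and surface and transport genes in 13 of 14 (median -0.29). Of the ligands and co-receptors 3 of 12 (25%) were highest on wild-type replicate 3, against 25.5% of genes above background. In the arterial list it was 7 of 10 (70%), and in the surface and transport list 8 of 14 (57.1%). In the latter list Adgrf5, an adhesion GPCR, was 3677.1, 2755.1 and 3165 against 4619.1, 4515.4 and 6320.5 (-0.68 ± 0.22), and its other probe set overlapped (-0.13). Cd93, the other receptor for Mmrn2, was 3753.7, 3960.5 and 4585.7 against 5148.9, 5180.3 and 5550.7 (-0.37 ± 0.17). Its 3 other probe sets above background gave -0.46, -0.32 and -0.49; the mean of all its probe sets, -0.94, includes 1 below background on every array.

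Haemostasis, nitric oxide and endothelin genes were lower in 10 of 13 (median -0.16), and 6 of 13 (46.2%) were highest on wild-type replicate 3. Thbd, the anticoagulant thrombomodulin, was 14682, 12424.4 and 13120.5 against 18654.5, 18490.7 and 19159.1 (-0.49 ± 0.16; limma adjusted p = 0.731). Its 3 wild-type pools were alike, so wild-type replicate 3 did not stand out. Procr, the endothelial protein C receptor that works with Thbd, was 6693.2, 4896.9 and 5844 against 7154.7, 8123.6 and 12169.8 (-0.63 ± 0.26, or -0.40 without wild-type replicate 3). Junction partners and caveolae were lower in 8 of 14 (median -0.02), with Jam3 at 698.1 to 941.1 against 1149.6 to 1248.9 (-0.57 ± 0.19) and the connexin Gja1 at 30054.1 to 34230.8 against 25535.4 to 29972.9 (0.21 ± 0.17). The other Jam3 probe set, above background on 3 of 6 arrays, went the other way (0.47), and the mean of both gave -0.05. The mean of all Gja1 probe sets, 0.32, includes 1 at 0.75 that was high only on klotho-deficient replicate 3. That probe set gave 27531.6 there against 4181.1 to 6494.2 on the remaining arrays. Smooth muscle also makes Gja1.

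Other endothelial transcription factors were lower in 10 of 18 (median -0.05). Nfatc1, needed in valve endothelium, was 1358.9 to 1463.8 against 1518.3 to 2471.7 (-0.42 ± 0.23, or -0.22 without wild-type replicate 3). Its other probe sets gave -0.88, -0.25, -0.38 and -0.32, all with overlap. Foxc1 was 2409.2 to 3278 against 2315.7 to 2408.5 (0.27 ± 0.19), the nearest pools being almost level. The other Foxc1 probe set gave 0.27 with overlap. Genes of endoglin partners and BMP9 signalling were lower in 3 of 12 (median 0.04). Leukocyte adhesion genes were lower in 2 of 6 (median 0.32). Lymphatic endothelial markers, a related vessel type, were lower in 2 of 6 (median 0.11), with 18556 to 20351 as summed signal in klotho-deficient and 18095 to 23629 in wild-type roots. Pericyte markers were lower in 1 of 5 (median 0.48), and smooth muscle markers in 3 of 6 (median 0.001). Of the 5 pericyte markers 3 were lowest on wild-type replicate 3. Their summed signal was 39307 there, 52182 and 52560 in the other wild-type pools and 49810 to 69679 in klotho-deficient roots.

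**Figure D5:**
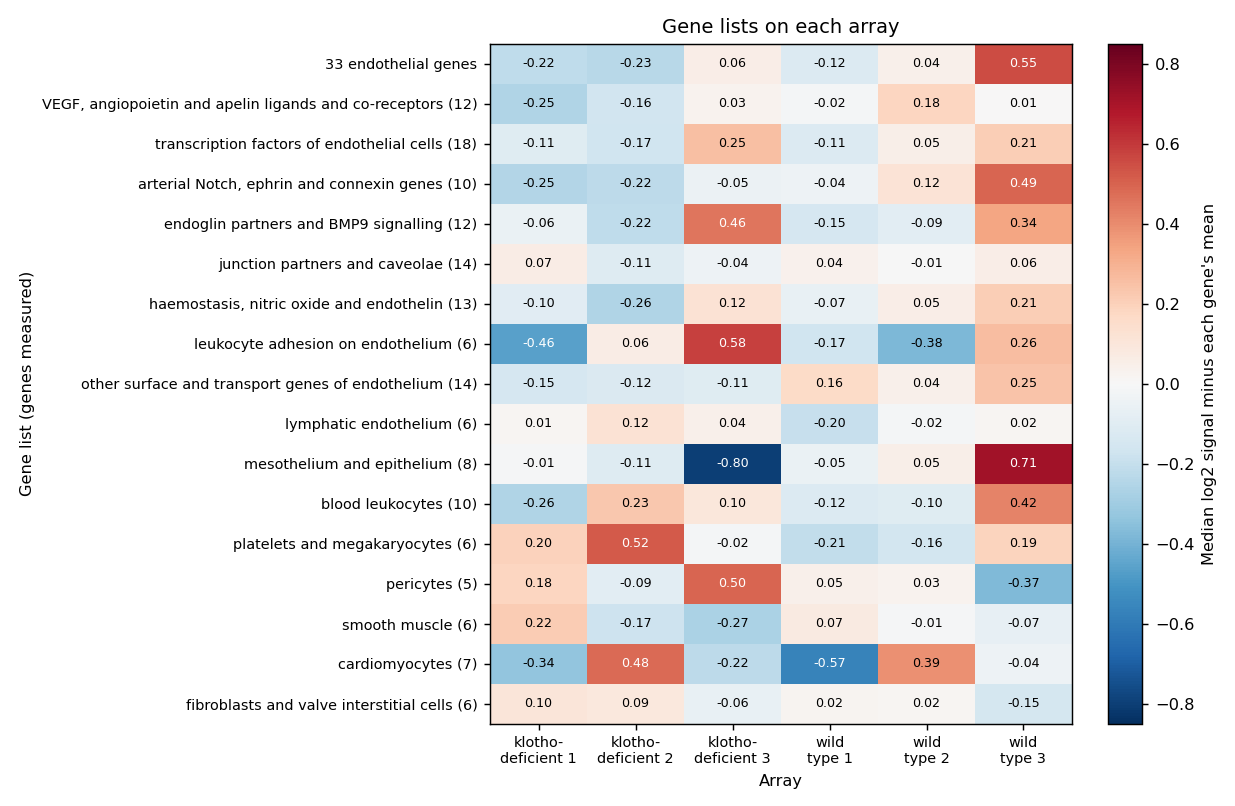
Cells give the median centred log2 signal of each gene list (rows, with the number of genes measured) on each array (columns); red is higher and blue lower than the genes' means. On wild-type replicate 3 the 33 endothelial genes were at 0.55, mesothelial and epithelial markers at 0.71, leukocyte markers at 0.42, and lymphatic markers at 0.02.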

How the data were processed

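The data are 6 mouse Affymetrix arrays, 3 per genotype, each of RNA pooled from 3 aortic roots. The deposited values are linear intensities per probe set, from 0.1 to 131884.9. Per the submitters' processing notes the authors used RMA (version not stated); how the values came to be linear is unknown. Means after trimming 2% at each end were 1500.01 on every array and medians 425.6 to 556.6.

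The log2 of the deposited intensities was used with no pseudocount or further normalization. Probe sets with 1 annotated gene (34945, controls left out) gave 18193 genes, each by its brightest probe set. Genotypes were compared in limma 3.58.1 (R 4.3.3; two-sided, Benjamini-Hochberg over all genes, threshold 0.05; 4 residual and 2.1 prior degrees of freedom), checked on simulated data. Signals are linear, differences are log2 ± SE, and the number of arrays limits precision. All members are named, and from each pathway list up to 2 genes above background, those of smallest p whose genotypes did not overlap. The members and lists were chosen with earlier results of these data known. A planned comparison of SOXF protein sequences was not made. Figures used matplotlib 3.10.9.

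Alternatives were quantile normalization, centring on array medians, the replicate number as a block, an offset of 100, leaving out dim genes, another variance prior, array weights, the mean of all probe sets, a threshold of 0.1 and each array left out; added after seeing the data was a comparison of arrays with Y-linked transcripts.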

Additional observations from a re-analysis of the deposited data

How the results depend on the processing

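Limma called 0 of the 33 endothelial genes under every alternative run, with member adjusted p from 0.395 to 1.00. Over all genes, 1 was called with an offset of 100, with dim genes left out, with array weights and at a threshold of 0.1, 2 with a trended and robust prior, and 0 to 1 with an array left out. Members with all klotho-deficient arrays below wild type numbered 2 with each array centred on its median, 8 to 14 with an array left out and 18 between klotho-deficient replicate 1 and wild type, where 30.2% of all genes were so placed; fewer arrays make this easier. The count was 14 without klotho-deficient replicate 3, where 14.7% of all genes were so placed, and 13 without wild-type replicate 1, where 10.8% were. It was 8 without klotho-deficient replicate 1 (9.91% of all genes), 9 without klotho-deficient replicate 2 (12.4%) and 11 without wild-type replicate 2 (10.8%). Without wild-type replicate 3 it was 9 (10.8%), and 2 members lay wholly above, where 11.9% of all genes did so. With arrays centred on their medians 4.63% of all genes lay below. The median difference was -0.45 to -0.10 with an array left out, and -0.27 to -0.24 under the alternatives that kept all 6 arrays. Members lower numbered 22 to 33.

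Signs turned in 13 members. With an array left out, differences ran from -0.055 to 0.33 for Pecam1, -0.44 to 0.22 for Vwf, -0.39 to 0.18 for Cldn5, -0.51 to 0.017 for Egfl7, -0.10 to 0.45 for Eng, -0.0074 to 0.52 for Robo4, -0.35 to 0.019 for Fli1, -0.26 to 0.040 for Sox17, -0.48 to 0.016 for Sox18, -0.11 to 0.37 for Tal1, -0.29 to 0.10 for Lyl1 and -0.33 to 0.050 for Clec14a. Array weights gave 0.054 for Cldn5, the mean of all probe sets -0.18 for Eng, 0.012 for Erg and 0.19 for Sox17, and the arrays with Y-linked transcripts -0.34 for Tal1. The cause was not tested.

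The replicate block left 0 calls, with a lowest limma adjusted p of a member of 0.725. With 1 array of each genotype per replicate number, the block cannot change a difference, so the median of -0.26 was bound to stay. Same-numbered arrays had correlations of deviations of 0.165, -0.0097 and 0.161. Klotho-deficient replicates 1 and 3 correlated best with the wild-type array of their own number, and replicate 2 with another number. With 3 arrays per genotype these values cannot decide whether same-numbered arrays share more than a number, which was not tested.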
